A study of Mus musculus with 6 samples.

Results

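The Hedgehog genes of the ovary were taken as 8 genes matched by symbol among the 44788 genes listed in the count table, namely Dhh, Ihh, Ptch1, Smo, Gli1, Gli2, Gli3 and Hhip. All 8 were found under these symbols and all 8 passed the filter on low counts. They were compared between 3 whole-ovary samples of Bnc1+/+ mice, numbered 1, 4 and 7, and 3 of Bnc1tr/tr mice, numbered 1 to 3, which were all of the C57BL/6 J strain and 8 weeks of age. Bnc1 encodes basonuclin 1, a zinc finger protein of germ cells and epithelia, and Bnc1tr/tr mice carry on both alleles a small frameshift deletion that ends the reading frame early and was modelled on a human mutation of primary ovarian insufficiency. The allele is present in every cell of the body, so that granulosa cells, theca cells and oocytes of these ovaries all carry it, and mutants and controls came from matings of heterozygous parents. The study's methods state that littermates were compared, but the labels do not tie any ovary sample to a litter. Total RNA of each ovary sample was sequenced single-end on the Ion Proton platform, and the values below are CPM (reads of a gene per 1000000 reads of its library) after TMM normalization unless another scale is named.

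In the ovary, Hedgehog signalling runs between cell layers. Granulosa cells, which surround the oocyte, secrete the ligands Desert hedgehog (Dhh) and Indian hedgehog (Ihh), and the mesenchymal cells outside the follicle, which become theca cells, receive them. At the receiving cell the ligand binds Patched (Ptch1), which otherwise holds Smoothened (Smo) inactive, and active Smo works in the primary cilium to switch the Gli transcription factors from repressors to activators. Gli1, Ptch1 and Hhip are themselves induced by the signal, and Ptch1 and Hhip then bind ligand and damp it. Signals from the oocyte, among them Gdf9, are known to stimulate ligand production by granulosa cells, and the theca is a main source of ovarian androgen.

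The promoters of the ligand genes are shown because the ligands are the secreted side of the pathway and because Dhh was the only Hedgehog gene that passed the test below. Both sequences are the 250 bases upstream of the RefSeq start site on GRCm38.p6, written 5′ to 3′ along the minus strand on which the genes lie, with GC boxes (GGGCGG on either strand) in capitals. The Dhh sequence is chr15:98898541-98898790 and the Ihh sequence is chr1:74951673-74951922.
Dhh: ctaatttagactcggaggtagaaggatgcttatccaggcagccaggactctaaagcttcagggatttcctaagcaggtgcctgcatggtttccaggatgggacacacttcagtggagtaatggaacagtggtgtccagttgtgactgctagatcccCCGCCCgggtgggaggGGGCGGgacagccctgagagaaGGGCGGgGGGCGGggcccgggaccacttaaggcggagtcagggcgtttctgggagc
Ihh: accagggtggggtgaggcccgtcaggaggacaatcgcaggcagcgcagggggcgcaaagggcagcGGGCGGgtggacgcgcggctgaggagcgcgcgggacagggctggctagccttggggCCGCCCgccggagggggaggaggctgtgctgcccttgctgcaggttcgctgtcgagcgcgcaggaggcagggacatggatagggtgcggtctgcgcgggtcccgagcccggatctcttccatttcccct
The Dhh promoter held 4 GC boxes and the Ihh promoter held 2. Among all 32851 RefSeq promoter windows of 300 bases (250 before and 50 after the start site), 35.7% held at least 1. Of the 8 Hedgehog genes, 7 were matched in the promoter table, and Gli1 was not matched. No window of the 7 held the Gli binding consensus GACCACCCA on either strand, a motif present in 0.253% of all windows, or its shorter core CCACCCA, which lies within the consensus and was present in 9.3% of all windows.

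Dhh rose in Bnc1tr/tr ovaries. Its level was 29.6, 35.4 and 31.6 CPM in Bnc1+/+ replicates 1, 4 and 7 and 45.1, 45.2 and 53.2 CPM in Bnc1tr/tr replicates 1, 2 and 3, an order of ovaries that is kept in all series of values below. The genotypes did not overlap, and the mutant ovaries lay close together. The mean was 32.2 ± 2.99 CPM (SD, n = 3) in Bnc1+/+ and 47.8 ± 4.62 CPM (SD, n = 3) in Bnc1tr/tr ovaries. This is a log2 fold change of 0.57 with a standard error of 0.11, or 1.49-fold with a 95% confidence interval of 1.25-fold to 1.77-fold (adjusted p = 0.0228, quasi-likelihood test of edgeR, Benjamini-Hochberg over 19423 genes). These are values of whole ovaries, in which fewer cells of a type and less RNA per cell cannot be told apart, and neither the labels nor the methods say that each ovary sample came from a mouse of its own, so that p-values measure only the spread between these ovary samples.

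Ihh had the largest fold change of the 8 genes, but with a wider spread. It was measured at 30.5, 52.1 and 37.1 CPM in Bnc1+/+ and at 80.9, 50.1 and 69.7 CPM in Bnc1tr/tr ovaries. Bnc1tr/tr replicate 2 fell below Bnc1+/+ replicate 4, so the genotypes overlapped. The log2 fold change was 0.74 with a standard error of 0.23 and a 95% interval of 0.21 to 1.28, and it did not pass the threshold of 0.05 (adjusted p = 0.0962, edgeR's quasi-likelihood test). The third ligand, Sonic hedgehog (Shh), had between 0 and 2 reads in every ovary, at or under the floor of 3 counts, and was not tested.

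**Figure D1:**
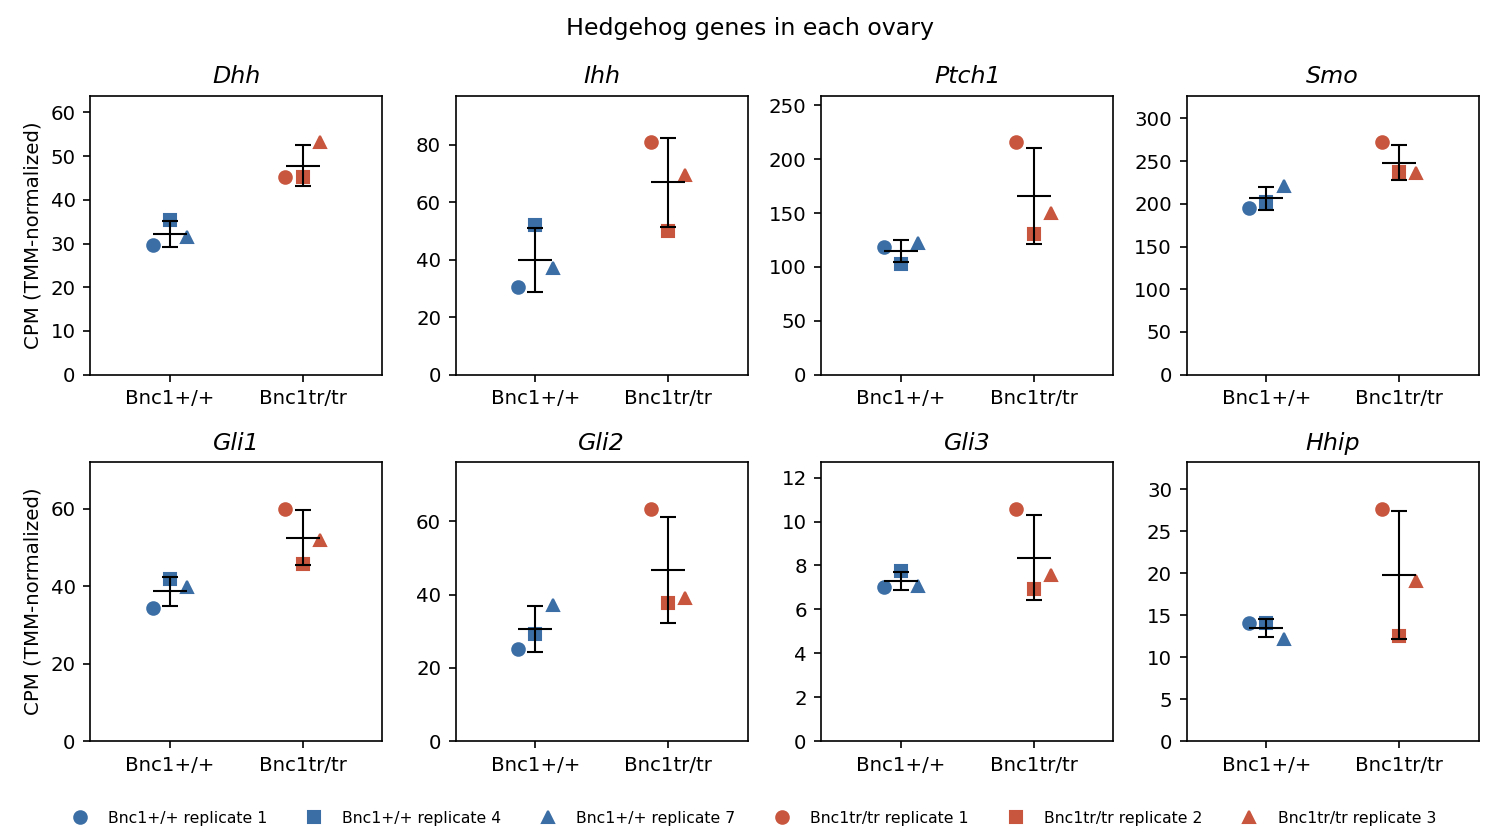
TMM-normalized CPM (vertical axes, each from 0) of the 8 Hedgehog genes in each ovary by genotype, with the mean and SD of 3 ovaries as bars and the replicate given by colour and symbol. Dhh, Ptch1, Smo, Gli1 and Gli2 show no overlap between genotypes, and Bnc1tr/tr replicate 1 is the highest ovary in every panel except that of Dhh.

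The receptor genes had higher means in Bnc1tr/tr ovaries but did not pass the test. Ptch1, the receptor that ligand binding relieves, was measured at 119, 103 and 122 CPM in Bnc1+/+ and at 216, 131 and 150.4 CPM in Bnc1tr/tr ovaries. The genotypes did not overlap, but Bnc1tr/tr replicate 1 stood far above the other mutant ovaries. The log2 fold change of Ptch1 was 0.53 with a standard error of 0.18 (95% interval 0.12 to 0.95, adjusted p = 0.1215, edgeR's quasi-likelihood test), and it was 0.30 without that ovary. Smo, the membrane protein that passes the signal inward, had 195, 203 and 221 CPM in Bnc1+/+ and 272, 237 and 236 CPM in Bnc1tr/tr ovaries. All mutant values were above all control values, within a narrow range. Its log2 fold change was 0.27 with a standard error of 0.094 (95% interval 0.050 to 0.48, adjusted p = 0.1325 in the same test).

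Among the Gli factors, Gli1, an activator that is itself a target of the pathway and serves as its usual read-out, came nearest to the threshold. It was measured at 34.4, 41.8 and 39.7 CPM in Bnc1+/+ and at 60.0, 45.7 and 51.9 CPM in Bnc1tr/tr ovaries. The genotypes did not overlap. This gave a log2 fold change of 0.44 with a standard error of 0.12 (95% interval 0.16 to 0.73, adjusted p = 0.0735, edgeR's quasi-likelihood test). Gli2, the main activator upstream of Gli1, had 25.1, 29.3 and 37.3 CPM in Bnc1+/+ and 63.5, 37.8 and 39.0 CPM in Bnc1tr/tr ovaries. Here the genotypes were separated only by a narrow margin, since Bnc1tr/tr replicates 2 and 3 lay close to Bnc1+/+ replicate 7 and replicate 1 stood far above. For Gli2 the log2 fold change was 0.61 with a standard error of 0.23 (95% interval 0.085 to 1.14, adjusted p = 0.1515), and 0.33 without Bnc1tr/tr replicate 1.

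Gli3, known mostly as the repressor of the family, was the least abundant Hedgehog gene, with 7.02, 7.76 and 7.06 CPM in Bnc1+/+ and 10.6, 6.92 and 7.57 CPM in Bnc1tr/tr ovaries. Only Bnc1tr/tr replicate 1 lay outside the Bnc1+/+ range on the high side, and the genotypes overlapped. The log2 fold change of Gli3 was 0.20 with a standard error of 0.19 (95% interval -0.23 to 0.63, adjusted p = 0.563, edgeR's quasi-likelihood test), and its sign turned without that ovary, to -0.0074. Hhip, a membrane protein that binds and sequesters the ligands, was measured at 14.1, 14.1 and 12.2 CPM in Bnc1+/+ and at 27.7, 12.5 and 19.0 CPM in Bnc1tr/tr ovaries. Bnc1tr/tr replicate 2 lay inside the Bnc1+/+ range, so these groups overlapped as well. For Hhip the log2 fold change was 0.56 with a standard error of 0.26 (95% interval -0.041 to 1.15, adjusted p = 0.235 in the same test), and it was 0.23 without Bnc1tr/tr replicate 1 and 0.80 without Bnc1tr/tr replicate 2.

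Read together, all 8 Hedgehog genes had a log2 fold change above 0, as did 52.6% of all genes tested. The median log2 fold change was 0.54 over the 8 genes and 0.02 over all genes tested. Of the 8, 1 was called higher (Dhh), beside 2.88% of all genes tested called higher, 4.19% called lower and 7.06% called in either direction. At an unadjusted p under 0.05, 6 of the 8 passed (Gli3 and Hhip did not), all higher in Bnc1tr/tr ovaries, beside 11.9% of all genes tested. Values of 5 of the 8 genes did not overlap between genotypes and were higher in Bnc1tr/tr ovaries, which was also so for 15.0% of all genes tested. The 8 genes are measured in the same 6 ovaries and several are regulated by the same signal, so they are not 8 separate observations.

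**Figure D2:**
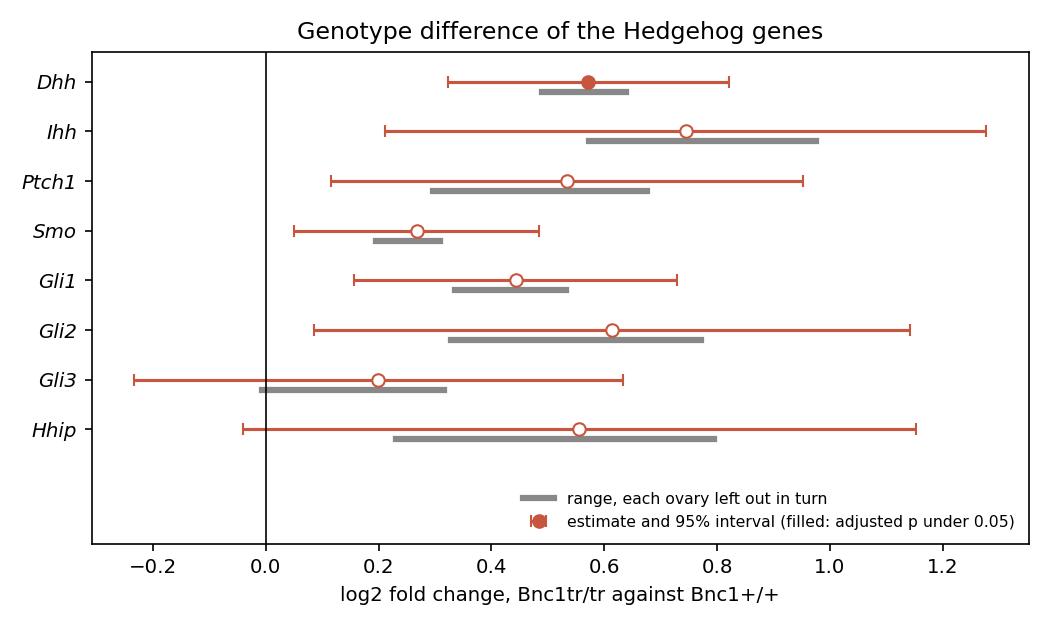
Log2 fold change of each Hedgehog gene in Bnc1tr/tr against Bnc1+/+ ovaries (horizontal axis), as the edgeR estimate with its 95% confidence interval, with a grey bar for the range of estimates when each ovary is left out in turn. The filled point, Dhh, had an adjusted p under 0.05, and the grey bars lie above 0 for every gene except Gli3.

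The call on Dhh did not hold under every choice of ovaries. Its log2 fold change stayed between 0.49 and 0.64 when single ovaries were left out, while its adjusted p ranged from 0.033 to 0.0961 in edgeR's quasi-likelihood test. The call was kept without Bnc1tr/tr replicate 1 or replicate 2 and was lost without Bnc1+/+ replicate 1 (adjusted p = 0.0787), Bnc1+/+ replicate 4 (0.0653), Bnc1+/+ replicate 7 (0.0961) or Bnc1tr/tr replicate 3 (0.074). A pair of ovaries stood apart by markers of oviduct and motile cilia, whose summed level was 190 CPM in Bnc1+/+ replicate 1 and 616 CPM in Bnc1tr/tr replicate 3 against 58.3 to 63.9 CPM in the other 4. These were also the ovaries with the lowest Bnc1+/+ and the highest Bnc1tr/tr level of Dhh. Without both, the log2 fold change of Dhh was 0.42 and the call was lost (adjusted p = 0.204). DESeq2 called Dhh, Ihh, Ptch1 and Gli1, with adjusted p-values of 0.000399, 0.0144, 0.0386 and 0.0243.

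The mutant ovaries differed among themselves in a pattern that recurred across the genes. Bnc1tr/tr replicate 1 had the highest value of its genotype in 7 of the 8 genes, Dhh being the exception, and Bnc1tr/tr replicate 2 had the lowest in 6 (Ihh, Ptch1, Gli1, Gli2, Gli3 and Hhip). On the log2 scale against the Bnc1+/+ mean, replicate 1 was at 1.05 for Gli2, 1.04 for Hhip, 1.02 for Ihh and 0.91 for Ptch1. The same genes in replicate 2 were at 0.31, -0.10, 0.33 and 0.19. Dhh was at 0.49, 0.49 and 0.72 in the 3 mutant ovaries on that scale, and Smo at 0.40, 0.20 and 0.19. Among the Bnc1+/+ ovaries, replicate 1 had the lowest value in 6 of the 8 genes.

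Levels can be compared between genes only per length, and for this the CPM were divided by the kilobases of all annotated exons of each gene in GENCODE M21. On that scale the mean level of Smo in Bnc1+/+ ovaries was 36.7 ± 2.31 CPM per kb (SD, n = 3), above all other Hedgehog genes. Ihh followed with 13.1 ± 3.63 CPM per kb. Next came Ptch1 with 8.07 ± 0.732, Gli1 with 7.74 ± 0.759 and Dhh with 7.32 ± 0.679 CPM per kb, 3 neighbours whose order is within their spread. Gli2 stood at 4.45 ± 0.903, Hhip at 1.48 ± 0.120 and Gli3 at 0.759 ± 0.0432 CPM per kb. In Bnc1tr/tr ovaries Smo was at 44.2 ± 3.68, Ihh at 22.0 ± 5.11, Ptch1 at 11.7 ± 3.13, Dhh at 10.9 ± 1.05, Gli1 at 10.5 ± 1.44 and Gli2 at 6.80 ± 2.11 CPM per kb. The end of this order was the same in the mutants, with Hhip at 2.18 ± 0.839 and Gli3 at 0.872 ± 0.204 CPM per kb.

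**Figure D3:**
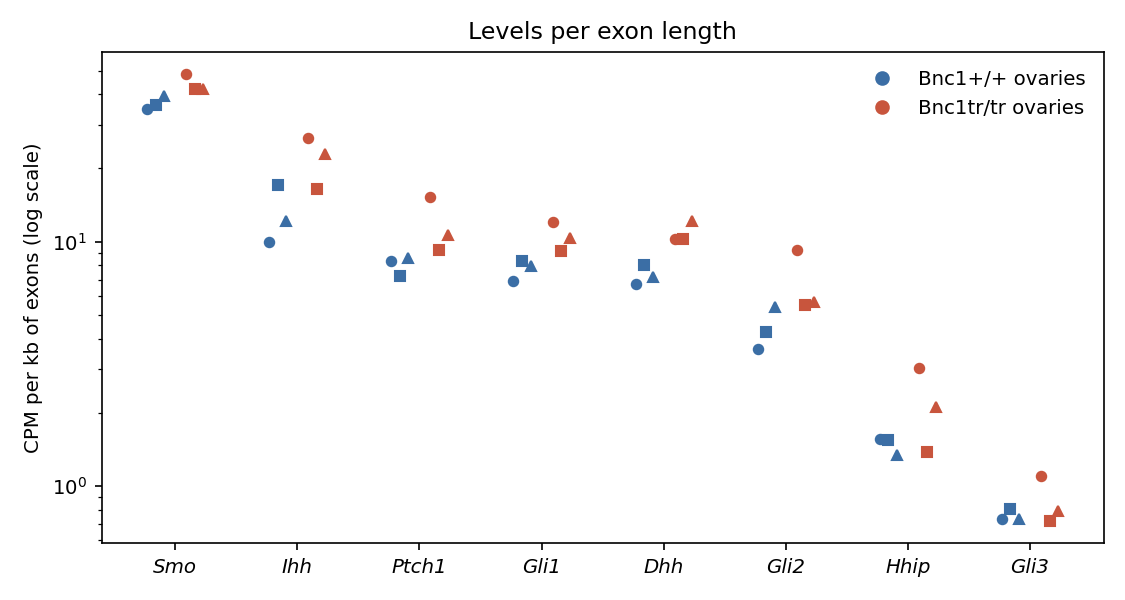
CPM per kilobase of annotated exons (log axis) of the Hedgehog genes in each of the 6 ovaries, with circles for replicate 1 of each genotype, squares for Bnc1+/+ replicate 4 and Bnc1tr/tr replicate 2, and triangles for Bnc1+/+ replicate 7 and Bnc1tr/tr replicate 3. Smo lies highest and Gli3 lowest in all 6 ovaries.

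On GRCm38 the Hedgehog genes lie on 6 chromosomes. Dhh is at chr15:98891152-98898540 (minus strand), and its exons overlap those of Rhebl1 on the same strand by 546 bases and those of the antisense RNA Gm49442 by 1107 bases. Reads in these stretches cannot be assigned by position alone, and the strand setting of the counting was not given in the sources used here. No row of the count table held reads for Gm49442. Rhebl1 had 8.47, 8.03 and 8.96 CPM in Bnc1+/+ and 11.7, 9.69 and 8.80 CPM in Bnc1tr/tr ovaries (adjusted p = 0.353, edgeR's quasi-likelihood test). The exons of Ihh, at chr1:74945315-74951672 (minus strand), overlap no other annotated exon. Those of Gli1, Gli3 and Hhip overlap exons on the opposite strand by 62 to 265 bases. Ptch1 is at chr13:63508328-63573598 (minus), Smo at chr6:29735503-29761365 (plus) and Gli1 at chr10:127329882-127341974 (minus). Gli2 is at chr1:118834132-119053619 (minus), Gli3 at chr13:15463235-15730026 (plus) and Hhip at chr8:79965851-80058006 (minus).

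The other genes of the pathway, from a list of 61 ordered by role, were spread on both sides of 0. Of the 61, 57 were tested, with 31 log2 fold changes above 0, 26 below 0 and a median of 0.05. Over all genes tested, 2.88% were called higher and 7.06% in either direction, and of these 57 genes 1 was called (higher). That gene was Evc, a protein at the base of the cilium that binds active Smo, with 44.9, 40.0 and 41.8 CPM in Bnc1+/+ and 52.9, 62.2 and 53.1 CPM in Bnc1tr/tr ovaries. Evc did not overlap between genotypes, with a log2 fold change of 0.41 and a standard error of 0.096 (adjusted p = 0.0461, edgeR's quasi-likelihood test), and it lost its call with any of the 6 ovaries left out (adjusted p from 0.0544 to 0.193). By role, the median log2 fold change was 0.21 for 6 tested genes of ligand maturation and release, 0.20 for 7 co-receptors and receptors, 0.07 for 10 regulators of Smo, -0.07 for 15 regulators of the Gli factors and -0.02 for 19 genes of transport in the primary cilium. Apart from Evc, none of these genes passed the adjusted threshold in edgeR's test, and 11 of the 57 had an unadjusted p under 0.05, beside 24.2% of all genes tested.

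Named members of the pathway showed no common direction. The co-receptors that present ligand to Patched differed in sign, with log2 fold changes in edgeR's quasi-likelihood test of 0.33 for Boc (adjusted p = 0.176), 0.23 for Cdon (0.318) and -0.34 for Gas1 (0.204). Gas1 was at 43.0, 45.9 and 50.6 CPM in Bnc1+/+ and at 33.5, 45.2 and 31.5 CPM in Bnc1tr/tr ovaries, and it was called lower when Bnc1tr/tr replicate 2 was left out (log2 fold change -0.52, adjusted p = 0.0416). Sufu, which holds Gli factors in the cytoplasm, had a log2 fold change of 0.12 (adjusted p = 0.403) and Kif7, a motor protein of the cilium tip, one of 0.24 (adjusted p = 0.243).

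Of 16 genes described elsewhere as Hedgehog targets in various tissues, 14 were tested. Their median log2 fold change was 0.42, 11 lay above 0 (52.6% of all genes tested did), and 3 were called higher (Nr2f2, Pthlh and Spp1) and none lower in edgeR's test, beside 2.88% of all genes tested called higher. At an unadjusted p under 0.05, 6 passed, all higher (11.9% of all genes tested), and 6 were higher without overlap (15.0% of all genes tested). Nr2f2, a nuclear receptor of stromal and theca cells, had 109, 92.3 and 104 CPM in Bnc1+/+ and 147, 166 and 128 CPM in Bnc1tr/tr ovaries (log2 fold change 0.53 with a standard error of 0.12, adjusted p = 0.0378). Pthlh, a secreted peptide that works in a loop with Ihh in growing bone, was low, with 21, 20 and 31 reads in Bnc1+/+ and 78, 66 and 84 reads in Bnc1tr/tr ovaries (log2 fold change 1.75 with a standard error of 0.28, adjusted p = 0.0119). Spp1, the secreted phosphoprotein osteopontin, rose from 14.4, 8.66 and 9.58 CPM to 43.1, 36.8 and 23.6 CPM (log2 fold change 1.67 with a standard error of 0.27, adjusted p = 0.0125). Each of the 3 was without overlap between genotypes, and each has known inputs other than Hedgehog. Leaving out Bnc1+/+ replicate 4 removed all 3 calls, with adjusted p-values of 0.165 for Nr2f2, 0.0707 for Pthlh and 0.078 for Spp1 in edgeR's test. The call on Spp1 was also lost without Bnc1+/+ replicate 7 (0.0635), and that on Nr2f2 was kept only when Bnc1tr/tr replicate 3 was the ovary left out. Foxf1, a target in gut and lung mesenchyme, had 3.49, 3.95 and 4.07 CPM in Bnc1+/+ and 3.70, 1.81 and 2.08 CPM in Bnc1tr/tr ovaries (log2 fold change -0.60 with a standard error of 0.29, adjusted p = 0.256). Without Bnc1tr/tr replicate 1 the log2 fold change of Foxf1 was -0.98 (adjusted p = 0.0558, edgeR's quasi-likelihood test).

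**Figure D4:**
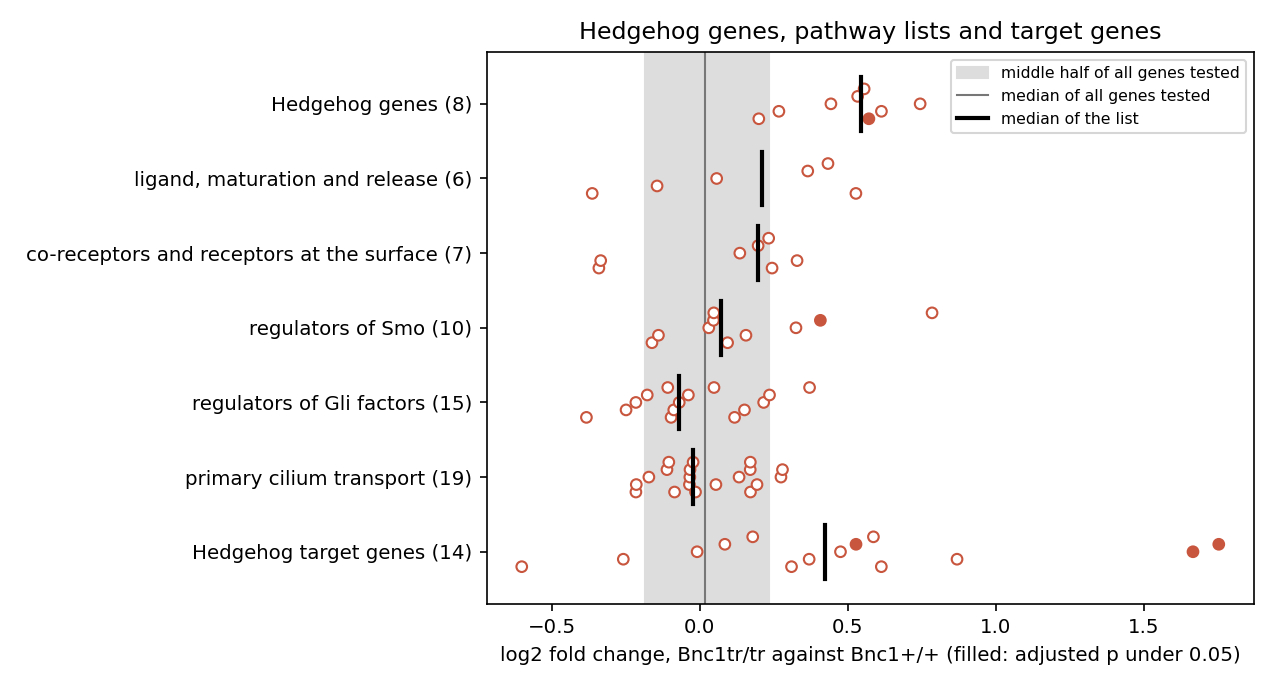
Log2 fold change in Bnc1tr/tr against Bnc1+/+ ovaries (horizontal axis) of each tested gene of the 8 Hedgehog genes, the pathway lists by role and the target genes, with filled points for an adjusted p under 0.05. Black bars are list medians, the grey line is the median of all genes tested and the grey band holds the middle 50% of them.

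Markers of the cells that send and receive the signal were read in the same libraries. Granulosa markers summed to 4935, 5637 and 4422 CPM in Bnc1+/+ and to 7326, 5023 and 6654 CPM in Bnc1tr/tr ovaries, with 2 of 15 called higher. The 2 were Amh and Slc18a2, both without overlap between genotypes (15.0% of all genes tested were higher without overlap). Amh had means of 174 CPM in Bnc1+/+ and 363 CPM in Bnc1tr/tr ovaries (log2 fold change 1.06, adjusted p = 0.0294, edgeR's quasi-likelihood test). Slc18a2 had means of 95.2 and 161 CPM (log2 fold change 0.75, adjusted p = 0.00341 in the same test). In this and the following lists the shares over all genes tested are 2.88% called higher and 4.19% called lower. The granulosa list was mixed, with 8 log2 fold changes above 0 and 7 below 0, and most of the difference in its sum came from Inha, the inhibin alpha subunit, with means of 2208 and 3132 CPM (adjusted p = 0.175, edgeR's quasi-likelihood test). Foxl2, a transcription factor that maintains granulosa identity, was at 148, 165 and 140.4 CPM in Bnc1+/+ and at 112, 124 and 134 CPM in Bnc1tr/tr ovaries, lower without overlap (log2 fold change -0.29 with a standard error of 0.10, unadjusted p = 0.0204 and adjusted p = 0.127 in edgeR's test). Amh, Slc18a2, Inha and Foxl2 were named after their values were seen. Oocyte markers summed to 754, 713 and 577 CPM in Bnc1+/+ and to 1117, 731 and 1106 CPM in Bnc1tr/tr ovaries, with 5 of 15 called higher. Of the 15 log2 fold changes, 12 lay above 0 and 3 below 0. Without overlap, 8 were higher and 1 lower, beside 15.0% and 15.8% of all genes tested. The lower gene was Sohlh1, also named after its values were seen (log2 fold change -0.46, adjusted p = 0.189, edgeR's quasi-likelihood test). In both sums Bnc1tr/tr replicates 1 and 3 stood above all Bnc1+/+ ovaries and replicate 2 lay within their range, as was also seen for Ihh and Hhip. No marker of either list was at or under 3 counts in all 6 ovaries. The part of these cell types in the levels of Dhh and Ihh was not tested. The oocyte factor Gdf9 was at 193, 177 and 140.1 CPM in Bnc1+/+ and at 339, 219.9 and 316 CPM in Bnc1tr/tr ovaries (log2 fold change 0.78 with a standard error of 0.18, adjusted p = 0.0458, edgeR's quasi-likelihood test), and its partner Bmp15 was at 30.5, 29.2 and 25.9 CPM against 66.8, 41.4 and 54.4 CPM (log2 fold change 0.93 with a standard error of 0.17, adjusted p = 0.0204). With single ovaries left out, the call on Gdf9 was kept only without Bnc1tr/tr replicate 2 and that on Bmp15 only without Bnc1tr/tr replicate 1 or 2, and in the other fits edgeR's adjusted p reached 0.158 for Gdf9 and 0.101 for Bmp15.

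As a description made after the values were seen, each Hedgehog gene was divided by the summed granulosa markers of the same ovary. Dhh stood at 5.99, 6.29 and 7.14 CPM per 1000 CPM of granulosa markers in Bnc1+/+ and at 6.16, 9.00 and 7.99 in Bnc1tr/tr ovaries, which overlapped. Ihh stood at 6.18, 9.25 and 8.39 in Bnc1+/+ and at 11.1, 9.98 and 10.5 in Bnc1tr/tr ovaries, which did not overlap. The other 6 genes overlapped on that scale. Against the summed oocyte or stroma markers, all 8 genes overlapped between genotypes. The share of all genes tested without overlap was not computed on these scales, so these counts have no background to be read against.

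On the receiving side, the stroma markers summed to 2993, 2507 and 2921 CPM in Bnc1+/+ and to 2465, 3698 and 3355 CPM in Bnc1tr/tr ovaries, with 0 of 10 called by edgeR (2 at an unadjusted p under 0.05). Markers of theca externa and vessel smooth muscle summed to 1984 to 2201 CPM in Bnc1+/+ and to 2043 to 2307 CPM in Bnc1tr/tr ovaries, with 0 of 9 called (2 at an unadjusted p under 0.05). Bnc1tr/tr replicate 1, in which 7 Hedgehog genes were highest, had the lowest stroma sum of the 6 ovaries. The androgen enzyme Cyp17a1, a defining theca marker, varied widely within both genotypes, at 8.62, 124 and 21.6 CPM in Bnc1+/+ and 235, 3.65 and 5.46 CPM in Bnc1tr/tr ovaries, and the same Bnc1tr/tr replicate 1 had its highest level. Its log2 fold change was 0.66 with a standard error of 1.50 (adjusted p = 0.824, edgeR's quasi-likelihood test), and it was -3.49 without that ovary. Insl3, a hormone of theca cells, was at 3.82, 4.26 and 4.27 CPM in Bnc1+/+ and at 4.80, 3.19 and 2.57 CPM in Bnc1tr/tr ovaries (log2 fold change -0.23, adjusted p = 0.632).

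**Figure D5:**
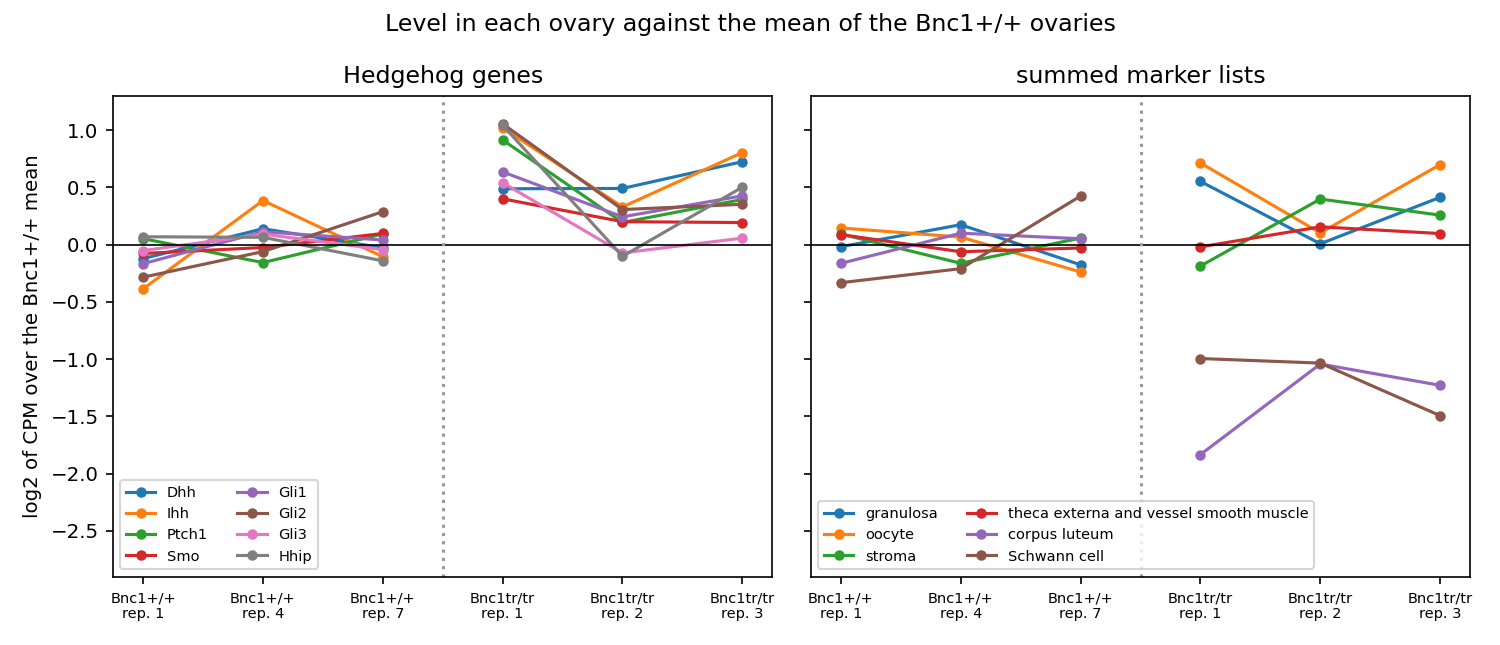
Log2 of CPM over the Bnc1+/+ mean (vertical axis) in each of the 6 ovaries, for the 8 Hedgehog genes on the left and for summed marker lists on the right, with lines that only join the values of the same gene or list within a genotype. In Bnc1tr/tr replicate 1 most Hedgehog genes and the granulosa and oocyte sums are high, while the corpus luteum sum is at its lowest, -1.83.

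Markers of luteal cells, among them genes of steroid production, were lower in Bnc1tr/tr ovaries. Corpus luteum markers summed to 23390 to 28080 CPM in Bnc1+/+ and to 7349 to 12720 CPM in Bnc1tr/tr ovaries, with 8 of 10 called lower. The list of theca and steroid cells, which shares Cyp11a1, Star, Hsd3b1 and Lhcgr with it, summed to 22520 to 25750 CPM and to 8200 to 14640 CPM, with 4 of 9 called lower. Those 4 were the shared genes, so these calls are the same as in the luteal list. None of the genes particular to the theca and steroid list was called. Endothelial markers summed to 687 to 849 CPM and to 443 to 524 CPM, with 5 of 8 called lower. A lower share of such transcripts moves the CPM of all other genes, so the scaling was varied. With library sizes alone in place of TMM factors the median of all genes tested moved from 0.02 to 0.12, the share of calls that were higher moved from 40.7% to 64.3%, and 2 Hedgehog genes were called, Dhh and Gli1. Relative to that shifted median, the log2 fold changes of the 8 genes ranged from 0.18 for Gli3 to 0.73 for Ihh. The part of the luteal markers in the levels of the Hedgehog genes was not tested, and the labels give no stage of the estrous cycle.

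Dhh is also a product of Schwann cells, so their markers were read beside it. Schwann cell markers summed to 91.1 to 154 CPM in Bnc1+/+ and to 40.7 to 57.6 CPM in Bnc1tr/tr ovaries, with 1 of 6 tested genes called lower. The defining transcription factor Sox10 was low in all ovaries, with 2 to 5 reads. Surface epithelium markers summed to 378 to 439 CPM in Bnc1+/+ and to 416 to 557 CPM in Bnc1tr/tr ovaries (1 of 10 called, higher). Macrophage markers summed to 573 to 623 CPM and to 393 to 785 CPM (0 of 8 called by edgeR, 1 at an unadjusted p under 0.05), and of the oviduct and motile cilia markers 0 of 11 tested were called (2 at an unadjusted p under 0.05).

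The genes whose values followed those of Dhh most closely over the 6 ovaries were Dnajc9, Arrdc4 and Gm14639. Likeness was the root mean square difference of log2 CPM after centring each gene, over 16749 genes with a mean of at least 1 CPM. That difference was 0.0534 for Dnajc9, 0.0589 for Arrdc4 and 0.0645 for Gm14639. No other Hedgehog gene was among these 3.

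Bnc1, the mutated gene, was measured at 13.9, 13.4 and 13.1 CPM in Bnc1+/+ and at 18.7, 13.7 and 11.5 CPM in Bnc1tr/tr ovaries (log2 fold change 0.12 with a standard error of 0.18, adjusted p = 0.733, edgeR's quasi-likelihood test). A count per gene does not show a small deletion, so this level checks no label. Totals were 25247770 to 34406296 counts per ovary, the ribosomal RNA gene Rn18s-rs5 took 0.463% to 3.47% of them, and no 2 ovaries of a genotype were alike enough to be the same library (chi-square per degree of freedom 17.0 to 64.4).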

How the data were processed

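Libraries of TRIzol-extracted total RNA were sequenced single-end on an Ion Proton. What the authors deposited are raw counts, that is, whole numbers of reads for each gene in each ovary with no normalization. The submitters' processing notes name the builds mm10 and Sscrofa10.2 without giving their role; the aligner, counter and annotation are not given in the sources used here. Counts were filtered with filterByExpr (minimum count 10), scaled by TMM and fitted with glmQLFit and glmQLFTest of edgeR 4.0.16 under R 4.3.3 (two-sided), with p-values adjusted over 19423 genes by the Benjamini-Hochberg method and a threshold of 0.05. The standard error is the absolute log2 fold change divided by the square root of F. The pipeline was tested on simulated data. Positions and exon lengths came from GENCODE M21 on GRCm38, and promoters from RefSeq.

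The Hedgehog genes, pathway roles, target genes and 11 marker lists were written from general knowledge and chosen with earlier results of these data known. The text names the 8 Hedgehog genes, Bnc1 and the genes of the pathway and target lists with an adjusted p under 0.05. It also names a fixed set of pathway genes (Shh, Sufu, Boc, Cdon, Gas1, Kif7, Foxf1, Nr2f2), 5 marker genes and the 3 genes nearest to Dhh. Rhebl1 and Gm49442 were added for their overlap with Dhh. The markers Amh, Slc18a2, Inha, Foxl2 and Sohlh1 were added after their values were seen. Results of some genes of these lists are not reported here. Of the listed symbols, 3 were matched through RefSeq synonyms and 1 was not matched. Alternatives were DESeq2 1.42.0, its size factors, library size, limma-voom (limma 3.58.1), a robust edgeR fit, other filters and thresholds, and leaving out each ovary in turn. Depths of 25247770 to 34406296 counts per ovary leave counting error in low genes, beside the spread between ovaries. The floor of 3 counts covers counting error only.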

Additional observations from a re-analysis of the deposited data

How the results depend on the processing

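No paired analysis was possible because only replicate number 1 occurs in both genotypes and the labels tie no sample to a litter, although the study's methods state that littermates were compared. Of 112 values of the 8 Hedgehog genes under 14 alternatives, 102 kept their direction and their side of the threshold, 4 passed it newly, 5 no longer passed it and 1 was reversed. The number of Hedgehog genes called, 1, ranged from 0 to 1 with each ovary left out, and was 2 with library size only, 4 with the DESeq2 test, 6 at an unadjusted p under 0.05, and 0 without both ovaries that held oviduct markers, an alternative chosen after seeing the data. The other pathway genes called, 1, ranged from 0 to 3 with each ovary left out, and were 0 without both oviduct-marker ovaries, 0 with an absolute log2 fold change over 0.5 and 11 at an unadjusted p under 0.05. The target genes called, 3, ranged from 0 to 3 with each ovary left out, and were 5 with DESeq2, 1 without both oviduct-marker ovaries and 6 unadjusted. Over all genes tested, the 1372 calls ranged from 320 (without Bnc1+/+ replicate 4) to 1282 with each ovary left out, and were 2420 with DESeq2, 304 without both oviduct-marker ovaries and 4698 unadjusted. With each ovary left out, the log2 fold change ranged from -0.0074 to 0.32 for Gli3, -0.10 to 0.26 for Bnc1 and -3.49 to 2.41 for Cyp17a1, the negative ends without Bnc1tr/tr replicate 1. The sign of Cyp17a1 also turned with limma-voom (-0.80). Fits with fewer ovaries have fewer degrees of freedom, and the cause of the other changes was not tested. With 3 ovaries per genotype, small differences were not detectable, and not only in genes with few reads. The standard error of the log2 fold change was 0.19 for Gli3 with 180 to 298 reads. For Ptch1, with 3196 to 6070 reads, it was 0.18, and for Ihh it was 0.23.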
